A study of Mus musculus with 11 samples.

Results

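A set of 8 genes whose products control how RNA polymerase II is released from its pause near the start of a gene and how it elongates were followed across 11 maps of HIV integration: Polr2a, Cdk9, Ccnt1, Ccnt2, Hexim1, Ell2, Aff4 and Larp7. The members were these 8 named genes, out of 32052 annotated genes other than pseudogenes. A site counted when it lay inside the mm9 model of a gene or within 5 kb of it, a span called the gene window. The 8 windows did not overlap each other and held 711 of 831994 distinct sites, which is 0.0855% of the sites in 0.0131% of the genome.

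All cells were C57BL/6 mouse embryonic fibroblasts of the LEDGF-/- genotype, electroporated with a plasmid, infected with HIV 24 hours later and grown for 3 more days. LEDGF is a protein of chromatin that anchors HIV integrase through its integrase-binding domain (IBD). In each library a different protein carried that domain, so the map reports where viral DNA entered the genome in cells with that fusion. In 4 libraries the fused protein was a subunit of NELF (NELFA, NELFB, NELFCD or NELFE), in 1 library it was SPT5, and in 6 libraries it was a subunit of Integrator or of its SOSS partner complex (INIP, INTS11, INTS3, INTS9, NABP1 or NABP2), together called Integrator here. Every fusion came from an introduced plasmid, and cells lacking one were not analysed here, so the share of sites placed by the fusion was not tested. The labels give 1 library for each protein, so the subunits of a complex stand in for replicates. The p-values measure the spread between those subunits.

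During early elongation, polymerase II pauses a short way past the start of many genes, held by NELF together with DSIF, the complex that contains SPT5. P-TEFb, a kinase made of Cdk9 and a T-type cyclin, phosphorylates NELF, SPT5 and the tail of the polymerase and so lets elongation go on. P-TEFb is kept inactive in the 7SK particle by Hexim1, with Larp7 bound to the 7SK RNA, and it is carried to genes by the super elongation complex, which is built on Aff4 and contains Ell2. Integrator cleaves the nascent RNA and can end transcription close to the start.

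Libraries ranged from 18753 sites (NELFE) to 197069 sites (INTS9), so a single site stood for 5.33 sites per 100000 in the smallest. The NELF libraries held 18753 to 41265 sites. All 4 were read together on 1 flow cell and no Integrator or SPT5 library was read with them, so flow cell and family cannot be told apart. Marker genes of fibroblasts had a median density 4.31 times that of a uniform spread of sites over the genome, against 0.265 for hepatocyte, 0.294 for blood and 0.918 for neuron markers, all as site densities, since no RNA was measured.

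The sequences that frame the result are those at the start of Polr2a and Hexim1, the members with the densest sites. The 250 bases upstream of the RefSeq start (RefSeq, GRCm38.p6) were found once in mm9, at chr11:69572136-69572385 on the minus strand for Polr2a and at chr11:102977389-102977638 on the plus strand for Hexim1. Capitals mark the motifs searched on both strands, which were a TATA element written as TATAAA, its variant TATATA, the GC box GGGCGG and the box CCAAT. The 2 possible TATATA matches in Hexim1 overlap.
Polr2a upstream: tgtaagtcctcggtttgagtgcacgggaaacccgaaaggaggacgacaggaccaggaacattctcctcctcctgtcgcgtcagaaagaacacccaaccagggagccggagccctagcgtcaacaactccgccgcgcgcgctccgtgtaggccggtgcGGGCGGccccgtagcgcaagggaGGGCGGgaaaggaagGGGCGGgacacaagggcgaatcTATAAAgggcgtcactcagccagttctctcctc
Hexim1 upstream: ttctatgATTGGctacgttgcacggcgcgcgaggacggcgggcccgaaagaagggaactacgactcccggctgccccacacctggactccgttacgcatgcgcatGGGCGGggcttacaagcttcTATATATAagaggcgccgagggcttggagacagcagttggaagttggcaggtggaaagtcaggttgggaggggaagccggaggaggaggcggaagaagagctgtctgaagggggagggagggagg
The Polr2a window held TATAAA and 3 copies of GGGCGG. The Hexim1 window held TATATA, a copy of GGGCGG and CCAAT on its reverse strand. In windows from 250 bases upstream to 50 bases downstream, 13.6% of 32851 RefSeq promoters held TATAAA, 5.67% TATATA, 35.7% GGGCGG and 37.4% CCAAT. Among the 8 members 1 promoter held TATAAA, 1 TATATA, 7 GGGCGG and 5 CCAAT. These printed 250 bases held few sites. In Polr2a there was 0 in NELF, 0 in SPT5 and 1 in Integrator, and in Hexim1 there was 1 in NELF, 0 in SPT5 and 0 in Integrator.

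In the 8 windows 16 exact positions were hit in 2 or more libraries, 7 of them in Polr2a. The examples printed here were chosen after their positions were seen, because they are the positions nearest the Polr2a start that a NELF library shared with another library, and the 1 position hit in 3 libraries. Each is 25 bases of mm9 on the strand of the site, with capitals on the 5 target bases that HIV integration duplicates.
NELFA and NELFE, 75 bases inside Polr2a, chr11:69572049-69572073: acaaactgccGTAACctctgccgtt
NELFCD and SPT5, position -316 from the start, chr11:69572440-69572464: atactaatgaGAGACtttagctgaa
NELFCD and INTS9, position -327, chr11:69572451-69572475: tgtgtgggggGATACtaatgagaga
NELFB, NELFCD and NABP1, 1010 bases inside, chr11:69571114-69571138: ggatggtgacATTCCcaagtaatat
Over all 711 member sites, the first duplicated base was G in 46.3% and the fifth was C in 43.2%, against 42.4% and 40.6% in 100000 sites sampled from the whole series.

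Per length of window, Hexim1 and Polr2a were the densest members, at 21.2 ± 22.3 and 20.4 ± 9.90 times the uniform density (mean ± SD over 11 libraries). They ranked 265 and 290 among 22350 protein-coding genes, whose median was 1.31 times uniform density. Ccnt1 followed at 10.7 ± 4.77, then Cdk9 at 3.93 ± 2.73, Ccnt2 at 3.55 ± 3.48, Aff4 at 3.24 ± 1.22, Larp7 at 2.65 ± 2.64 and Ell2 at 1.12 ± 0.951. The density of Hexim1 was above that of Polr2a in 4 of 11 libraries, with a paired difference of 0.856 ± 22.8, so their order lay within the spread. Polr2a was above Ccnt1 in 10 of 11 libraries (9.63 ± 7.50) and Ccnt1 above Cdk9 in 9 of 11 (6.79 ± 5.29). The neighbours from Cdk9 down to Ell2 differed by less than the SD of their differences. Ell2 lay at the 44.9th percentile of protein-coding genes and the other members between the 71.6th and the 98.8th.

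**Figure D1:**
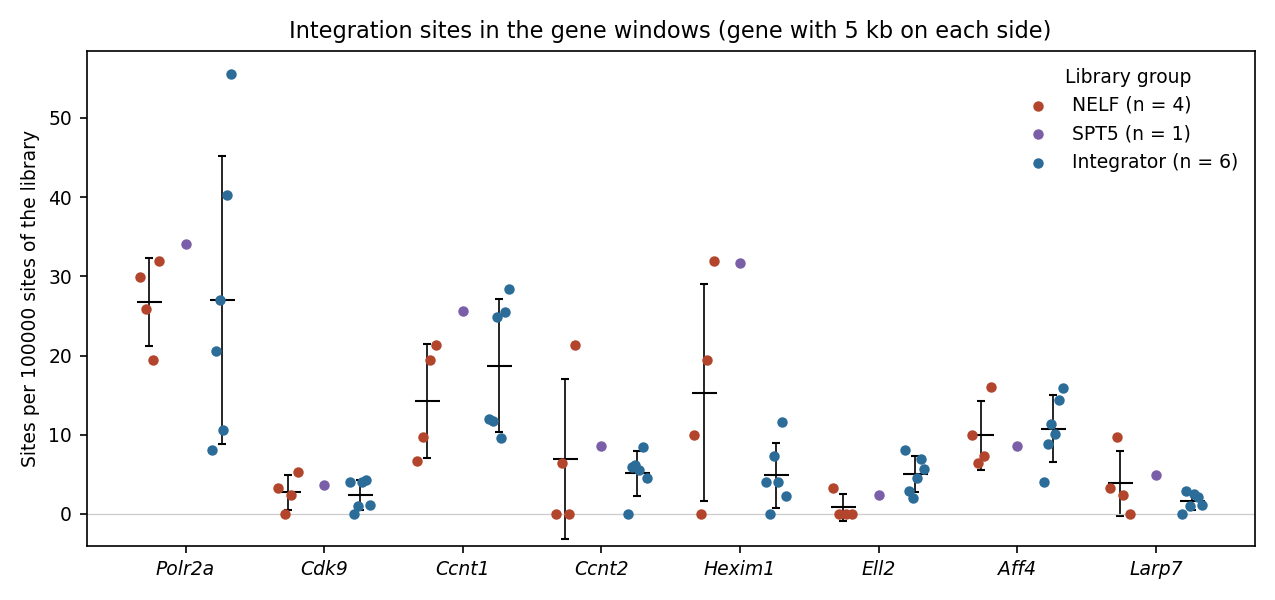
Sites per 100000 sites of a library in each gene window, for the 4 NELF libraries, the SPT5 library and the 6 Integrator libraries; each point is a library, and black marks are the mean and SD. Polr2a points reach 55.6 in Integrator, and in all 8 genes the NELF and Integrator points overlap.

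Summed over the 8 gene windows, the families differed by less than the spread among their libraries. The summed level was 66.4, 58.1, 70.3 and 128 sites per 100000 with NELFA, NELFB, NELFCD and NELFE, 119 with SPT5, and 40.1 to 115 with Integrator subunits. The means were 80.7 ± 31.9 for NELF and 75.6 ± 32.7 for Integrator (SD, n = 4 and 6). NELFE was the highest of the NELF libraries, and NABP2 and NABP1, at 115 and 114, were the highest of Integrator. Gene by gene, the families were compared with limma on log2(sites per 100000 + 5), fitted over all genes that averaged 3 or more sites in a library, so fold changes of low genes are understated. In that fit 2.55% of 7688 gene windows were higher and 0.689% lower in NELF at a Benjamini-Hochberg adjusted p of 0.05, and of the 6 members that passed the filter 0 were higher and 0 lower. On simulated counts that fit recovered 68% of gene windows at a fold of 4, 2% at a fold of 2 and 8% at a fold of 0.25. Members that were not called may therefore still differ. Before adjustment Hexim1 was higher and Ell2 lower at a limma p under 0.05, as were 9.16% and 6.88% of all gene windows tested.

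Polr2a encodes the largest subunit of polymerase II, which carries the tail that P-TEFb phosphorylates. Its gene window held 29.9, 25.8, 19.4 and 32.0 sites per 100000 with NELFA, NELFB, NELFCD and NELFE (9, 8, 8 and 6 sites), 34.1 with SPT5 (28 sites), and 8.03 (INIP), 20.6 (INTS11), 27.0 (INTS3), 10.7 (INTS9), 40.3 (NABP1) and 55.6 (NABP2) with Integrator (2, 7, 26, 21, 76 and 49 sites). The NELF range lay inside that of Integrator, where NABP2 and NABP1 were high and INIP and INTS9 low. The NELF mean was 26.8 ± 5.55 and the Integrator mean 27.0 ± 18.2, with a log2 difference of 0.18 (SE 0.36, limma adjusted p = 0.865). Without flanks this difference was -0.17 and without the INIP library -0.042, neither called. For 3 proteins the sites came from a pair of flow cells, which gave Polr2a levels of 10.8 and 9.79 for INTS9, 32.1 and 50.7 for NABP1 and 50.7 and 84.8 for NABP2. Of the sites of the smaller run, 0.215% (INTS9), 0.263% (NABP1) and 0.248% (NABP2) were also in the larger. Whether the paired runs came from separate preparations was not tested.

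Within Polr2a the sites lay in different places. Within 1 kb of the start, in the start window, there were 19.9, 19.4, 14.5 and 21.3 sites per 100000 with NELFA, NELFB, NELFCD and NELFE (6, 6, 6 and 4 sites), 7.31 with SPT5 (6 sites), and 0 (INIP), 11.8 (INTS11), 2.08 (INTS3), 2.03 (INTS9), 6.90 (NABP1) and 7.94 (NABP2) with Integrator. The Integrator counts, in that order, were 0, 4, 2, 4, 13 and 7 sites. Every NELF library was above every Integrator library, with INTS11 the closest, and SPT5 lay among the Integrator values. The Poisson interval of INTS11 ran from 3.21 to 30.2 sites per 100000, which covers the level of every NELF library. By the limit of 3 sites, a count of 0 in INIP allows up to 12 sites per 100000, which is above the level in INTS11. The Poisson interval of INIP reached 14.8, just above NELFCD. That of NABP2 ran from 3.19 to 16.4, which also covers NELFCD. The NELF intervals began at 7.31, 7.11, 5.34 and 5.81 with NELFA, NELFB, NELFCD and NELFE. All of these are below the level of NABP2, and those of NELFCD and NELFE are below NABP1. The order of NELF over INTS11 and NABP2 therefore lay within counting error, as did that of NELFCD over INIP and of NELFCD and NELFE over NABP1. The mean was 18.8 ± 2.95 in NELF and 5.12 ± 4.48 in Integrator, a log2 difference of 1.35 (SE 0.37, limma adjusted p = 0.00334). Such a difference was common: 26.6% of 2176 protein-coding start windows that averaged 1 or more sites in a library were higher in NELF, 0% were lower (3 at an unadjusted limma p under 0.05, and 0 with voom weights), and the median log2 difference over all of them was 0.51. On simulated counts this start fit recovered 0 of 50 windows at a fold of 0.25 and 11 of 50 at a fold of 4. The 0% lower therefore cannot show that no start window was lower in NELF. Of the 8 members 3 passed the filter of 1 or more sites, Polr2a, Hexim1 and Ccnt1, and 2 were higher in NELF, Polr2a and Hexim1. In 15% of these start windows the 2 families did not overlap and NELF was the higher. With no filter on low counts, where 14397 windows were tested, the limma adjusted p for Polr2a was 0.0545. It was just under the threshold with windows of 2 kb on each side (0.0486) and with libraries thinned to the smallest (0.0471).

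As a share of the sites of the Polr2a window, 66.7%, 75%, 75% and 66.7% lay within 1 kb of the start with NELFA, NELFB, NELFCD and NELFE, 21.4% with SPT5, and 0%, 57.1%, 7.69%, 19.0%, 17.1% and 14.3% with INIP, INTS11, INTS3, INTS9, NABP1 and NABP2. Again no Integrator library reached the NELF range, and INTS11, with 7 sites, came nearest. The NELF shares rest on 6 to 9 sites in a library, and that of INTS11 on 4 of 7, so a single site moves them widely. The mean share was 70.8% ± 4.81 in NELF and 19.2% ± 19.8 in Integrator, a difference of 51.6 percentage points. The exact two-sided permutation test over libraries gave p = 0.0048, the smallest it can give, and 0.138 after adjustment over 2601 genes. In 3.65% of those genes the families did not overlap and NELF was the higher, and 0% were called in either direction (341 higher and 4 lower before adjustment), since the smallest p does not pass the adjustment. This test was added after the positions had been seen.

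The strips of single sites show where the rest lay. Of 31 NELF sites in the Polr2a window, 22 lay within 1 kb of the start, 5 at 1 to 5 kb inside the gene and 2 further in. For SPT5 those numbers were 6, 8 and 12 of 28, and for Integrator 30, 70 and 61 of 181. The counts and median positions given here pool the libraries of a family, which differ in depth. NABP1 and NABP2 supplied 76 and 49 of the 181 Integrator sites. The NELF sites fell on both sides of the start, 9 upstream and 13 downstream, and none lay between positions -316 and 74 from the start. The 6 SPT5 sites within 1 kb were all upstream, and the first SPT5 site inside the gene was 1054 bases in. Integrator had 9 upstream and 21 downstream. The median site of Polr2a lay 379 bases inside the gene with NELF, 2598 with SPT5 and 2987 with Integrator. More than 1 kb inside the gene, Polr2a held 6.55 ± 3.37 sites per 100000 with NELF and 19.2 ± 14.6 with Integrator, a log2 difference of -0.91 (SE 0.36, limma adjusted p = 0.132), which did not pass. Over 4100 genes tested in this body window, 0.366% were higher and 1.78% lower in NELF, with a median of -0.30. Amac1, a gene model that spans positions -3331 to -1253 from the Polr2a start, held 1 NELF, 2 SPT5 and 11 Integrator sites of the Polr2a gene window.

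**Figure D2:**
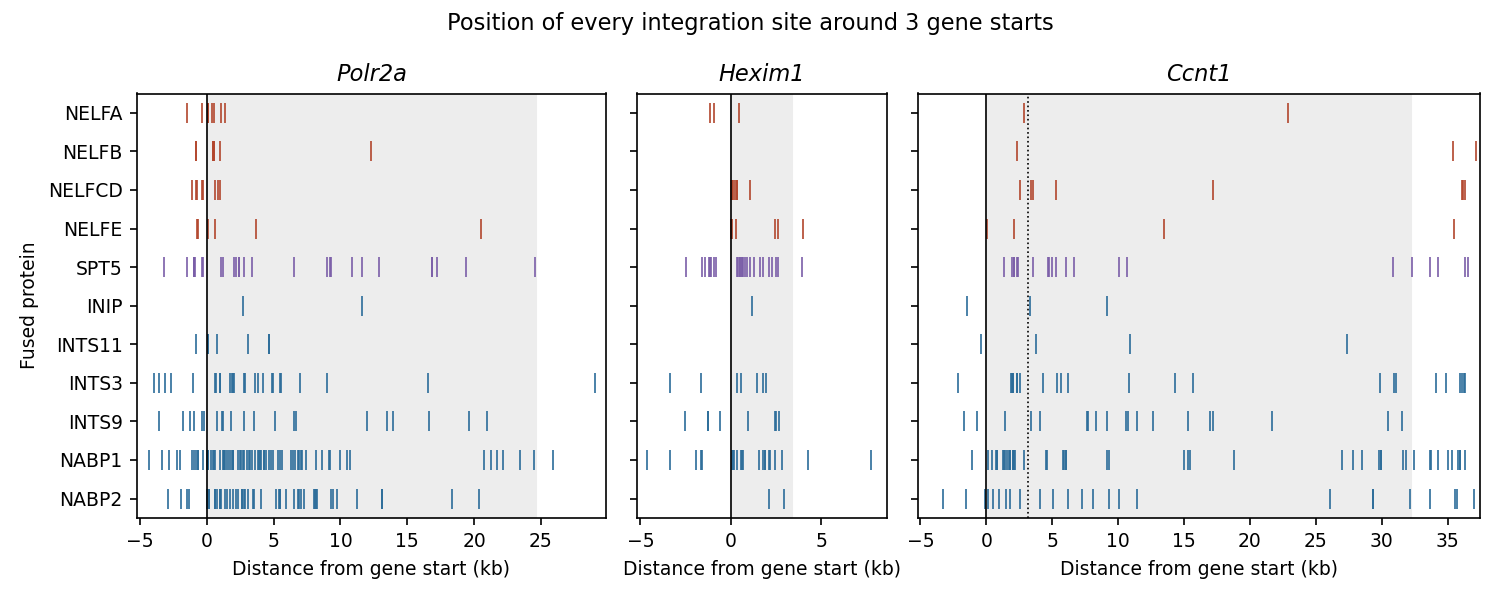
Every site in the windows of Polr2a, Hexim1 and Ccnt1 by distance from the gene start in kb, a row for each library with NELF at the top, then SPT5 and Integrator; grey marks the gene model, the solid line its start and the dotted line the RefSeq start of Ccnt1. Pooled over libraries, NELF sites of Polr2a gather at the start (22 of 31), and Integrator sites spread over the gene (30 of 181 at the start).

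Hexim1, the protein that inhibits P-TEFb within the 7SK particle, varied widely between libraries. Its gene window held 9.96, 0, 19.4 and 32.0 sites per 100000 with NELFA, NELFB, NELFCD and NELFE (3, 0, 8 and 6 sites), 31.7 with SPT5 (26 sites), and 4.01 (INIP), 0 (INTS11), 7.27 (INTS3), 4.06 (INTS9), 11.7 (NABP1) and 2.27 (NABP2) with Integrator. NELFE, SPT5 and NELFCD were high, NELFB had no site, and the families overlapped. A count of 0 allows up to 9.69 sites per 100000 in NELFB and 8.84 in INTS11. The means were 15.3 ± 13.6 in NELF and 4.88 ± 4.10 in Integrator, with a log2 difference of 0.81 (SE 0.39, limma adjusted p = 0.280).

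Within 1 kb of the Hexim1 start the levels were 6.64, 0, 17.0 and 16 sites per 100000 with NELFA, NELFB, NELFCD and NELFE, 13.4 with SPT5, and 0, 0, 2.08, 1.01, 3.71 and 0 with INIP, INTS11, INTS3, INTS9, NABP1 and NABP2. NELFA, NELFCD and NELFE lay above all Integrator values, but the counts of 0 allow up to 12 sites per 100000 in INIP and 8.84 in INTS11, above NELFA. The means were 9.90 ± 8.08 in NELF and 1.13 ± 1.51 in Integrator, a log2 difference of 1.09 (SE 0.31, limma adjusted p = 0.00499). The call was lost without the NELFCD library (0.84, adjusted p = 0.0544), with windows of 2 kb on each side (0.85, adjusted p = 0.10), with no filter (adjusted p = 0.0764) and with all libraries thinned to 18753 sites (0.58, adjusted p = 0.340). Pooled over libraries, 12 of 17 NELF sites, 11 of 26 SPT5 sites and 11 of 40 Integrator sites of Hexim1 lay in the start window. Of the NELF sites, 12 were in untranslated exon sequence, and the nearest lay 1 base upstream and 3 bases inside.

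**Figure D3:**
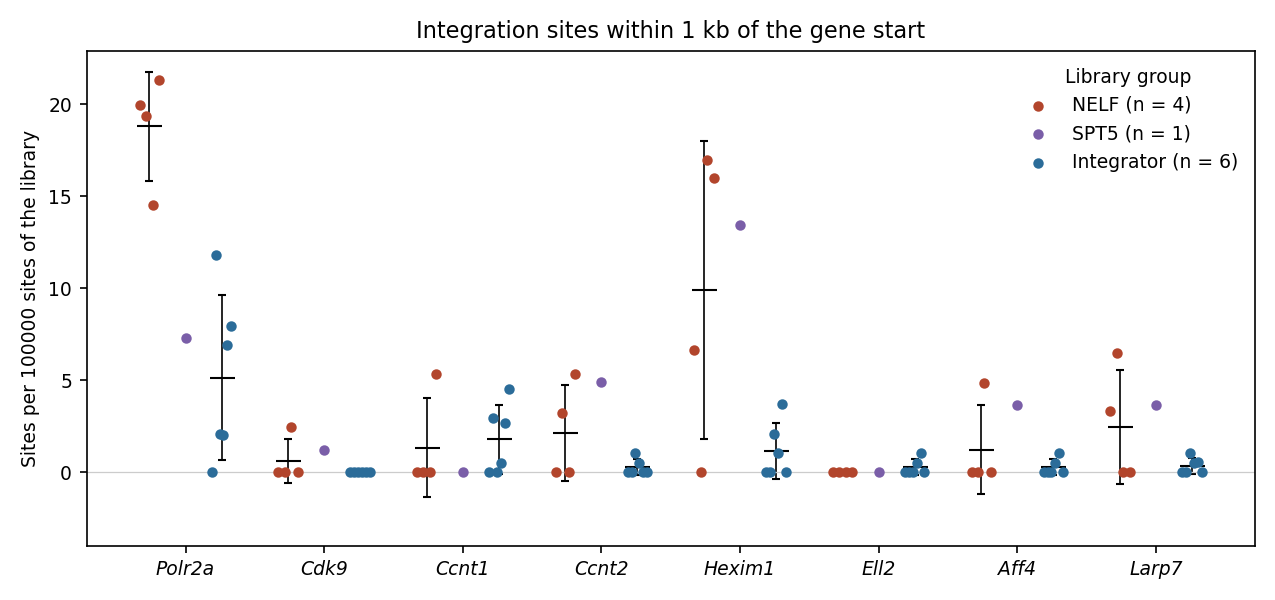
Sites per 100000 sites of a library within 1 kb of each gene start, by library group; points are libraries and black marks the mean and SD. At Polr2a the NELF points (14.5 to 21.3) are all above the Integrator points (0 to 11.8), and at Hexim1 NELFB sits at 0 beside 3 higher NELF points.

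Cdk9 and its cyclin partners are P-TEFb itself. Ccnt1 held 6.64, 9.69, 19.4 and 21.3 sites per 100000 with NELFA, NELFB, NELFCD and NELFE (2, 3, 8 and 4 sites), 25.6 with SPT5 (21 sites), and from 9.64 over a median of 18.5 to 28.3 with Integrator (123 sites). The families overlapped, and the log2 difference was -0.30 (limma adjusted p = 0.734). Unlike at Polr2a, the start window of Ccnt1 held 1 of 17 NELF sites, 0 of 21 SPT5 sites and 11 of 123 Integrator sites, with 1.33 ± 2.67 sites per 100000 in NELF and 1.77 ± 1.88 in Integrator (limma log2 difference -0.13, adjusted p = 0.712). The model starts 3187 bases upstream of the RefSeq start. Around the RefSeq start there were 3.46 ± 2.98 sites per 100000 with NELF, 3.66 with SPT5 and 2.40 ± 1.20 with Integrator. A further 6 of 17 NELF sites and 20 of 123 Integrator sites lay past the end of Ccnt1, where the start of the next gene, 2310037I24Rik, is 36685 bases from the Ccnt1 start. Another model, 9330020H09Rik, overlaps the first part of Ccnt1 and held 6 NELF, 6 SPT5 and 23 Integrator sites, so these windows mix genes.

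Ccnt2, the other cyclin, had 0, 6.46, 0 and 21.3 sites per 100000 with NELFA, NELFB, NELFCD and NELFE, 8.53 with SPT5, and from 0 over a median of 5.74 to 8.49 with Integrator. NELFE, with 4 sites, was the highest library, and the log2 difference of -0.06 did not pass (limma adjusted p = 0.965). The start window of Ccnt2 held 2 of 6 NELF, 4 of 7 SPT5 and 2 of 39 Integrator sites. Cdk9, the kinase subunit, held only 25 sites in all: 3.32, 0, 2.42 and 5.33 sites per 100000 with NELFA, NELFB, NELFCD and NELFE, 3.66 with SPT5, and from 0 over a median of 2.57 to 4.25 with Integrator. It was under the filter, and without a filter its log2 difference was 0.06 (limma adjusted p = 0.942). The start window of Cdk9 held 1 of 3 NELF, 1 of 3 SPT5 and 0 of 19 Integrator sites.

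Ell2 and Aff4 belong to the super elongation complex, Ell2 as an elongation factor and Aff4 as the scaffold. Ell2 held 1 site in the 4 NELF libraries together, at 3.32 sites per 100000 with NELFA and 0 with NELFB, NELFCD and NELFE. It had 2.44 with SPT5 and 8.03, 2.95, 2.08, 4.57, 6.90 and 5.67 with INIP, INTS11, INTS3, INTS9, NABP1 and NABP2. Every Integrator library had sites, but NELFA lay above INTS11 and INTS3. The means were 0.830 ± 1.66 in NELF and 5.03 ± 2.29 in Integrator, a log2 difference of -0.79 (SE 0.34, limma adjusted p = 0.208) that did not pass. The counts of 0 allow up to 9.69, 7.27 and 16 sites per 100000 in NELFB, NELFCD and NELFE, above all Integrator levels except that of INIP in NELFCD, so a lower level in NELF was not detectable library by library. The 1 NELF site was 61345 bases into the gene, and 20 of 32 Integrator sites lay more than 5 kb inside. Those 32 sites alone carried Ell2 past the filter.

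Aff4 held 9.96, 6.46, 7.27 and 16 sites per 100000 with NELFA, NELFB, NELFCD and NELFE, 8.53 with SPT5, and from 4.01 over a median of 10.8 to 15.9 with Integrator. The families overlapped (limma log2 difference -0.07, adjusted p = 0.954). Within 1 kb of its start lay 2 of 11 NELF, 3 of 7 SPT5 and 3 of 76 Integrator sites, and 45 of the Integrator sites were more than 5 kb inside the gene. Larp7, which binds and stabilises 7SK RNA, held 21 sites: 3.32, 9.69, 2.42 and 0 sites per 100000 with NELFA, NELFB, NELFCD and NELFE, 4.88 with SPT5, and from 0 over a median of 1.63 to 2.95 with Integrator. NELFB, with 3 sites, was the highest. Without a filter its log2 difference was 0.33 (limma adjusted p = 0.657). A divergent gene model, 4930422G04Rik, starts at position -141 from the Larp7 start and held 7 of the 21 sites. Within 1 kb of the Larp7 start lay 3 of 5 NELF, 3 of 4 SPT5 and 3 of 12 Integrator sites.

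Over the 8 genes together, 45%, 50%, 55.2% and 37.5% of sites lay within 1 kb of a member start with NELFA, NELFB, NELFCD and NELFE, 28.6% with SPT5, and from 0% to 27.8% with Integrator. All NELF libraries were above SPT5, and SPT5 above all Integrator libraries, though the exact binomial intervals of NELFE (18.8% to 59.4%) and INTS11 (9.69% to 53.5%) overlapped. SPT5 was barely above INTS11, and their order reversed within 1 kb of any annotated transcript start of a member. There INTS11 had 44.4%, SPT5 42.9% and NELFE 45.8%, the other NELF libraries 61.1% to 75.9% and the other Integrator libraries 10% to 27.1%. The means were 46.9% ± 7.53 in NELF and 11.9% ± 9.14 in Integrator, beside 25.3% ± 5.05 in NELF and 9.36% ± 2.01 in Integrator over all protein-coding gene windows, where SPT5 had 26.4%. The difference of 35.0 points between NELF and Integrator was 25.6 without Polr2a and 43.9 without Ccnt1. Pooled over libraries, introns held 39.6% of NELF, 44.9% of SPT5 and 62.3% of Integrator member sites. NABP1 alone supplied 214 of those 522 Integrator sites. Viral DNA lay in the orientation of the gene at 49.5% of the 711 sites (95% exact binomial interval 45.8% to 53.2%; intervals cover counting error only).

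**Figure D4:**
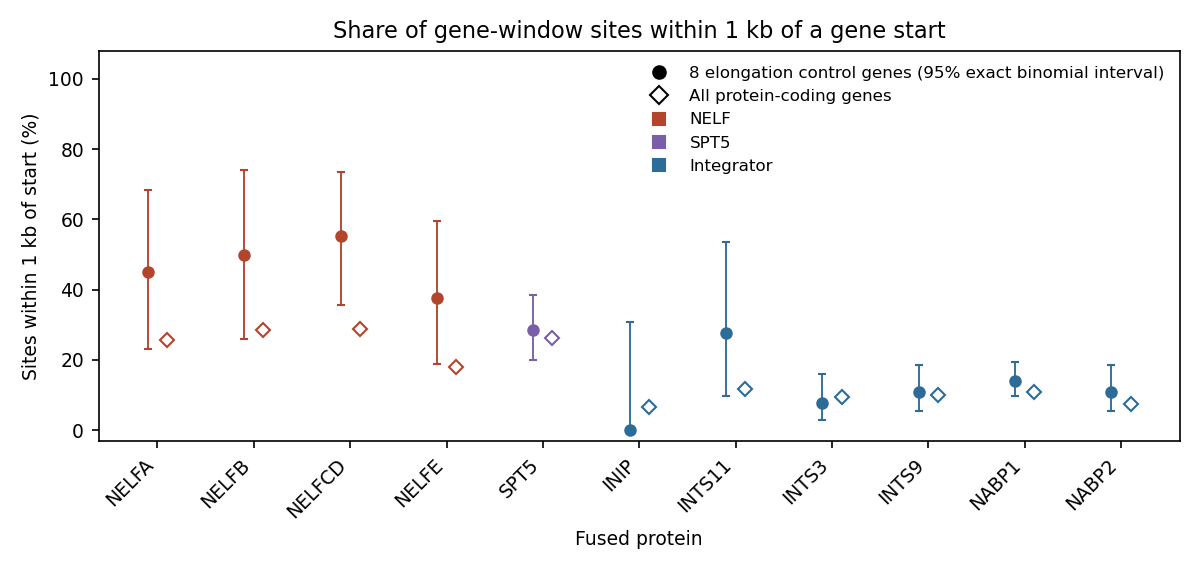
Share of sites within 1 kb of a gene start for each library, as filled points for the 8 elongation control genes with 95% exact binomial intervals and open diamonds for all protein-coding gene windows. Filled points lie between 37.5% and 55.2% in NELF, at 28.6% in SPT5 and at or under 27.8% in Integrator.

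Of 46 other genes of the elongation machinery, 44 matched the annotation, with a median density of 3.25 times uniform. In gene windows 24 were tested, 0 were higher and 1 was lower in NELF by limma, beside 2.55% and 0.689% of all gene windows. In start windows 8 were tested and 2 were higher in NELF, a share near the 26.6% over all start windows. Mepce, which caps 7SK RNA, averaged 6.40 ± 2.72 in NELF and 0.261 ± 0.441 in Integrator (limma log2 difference 1.09, adjusted p = 0.00486; 0.0840 after thinning). Mepce passed the filter only through its NELF sites, the family where it was higher, so its call rests partly on that selection. Cdk12, a kinase of the polymerase tail, averaged 8.40 ± 7.16 in NELF and 1.36 ± 1.67 in Integrator (limma log2 difference 0.92, adjusted p = 0.0205), a call lost without NELFB (adjusted p = 0.140), without NELFCD (0.0928), without INIP (0.0525) and under 5 other settings (0.0887 to 0.207). In the body window 14 were tested and 2 were lower in NELF, among them Cdk13, a kinase related to Cdk12, with 0 sites in NELF and 12.3 ± 5.95 per 100000 in Integrator (limma adjusted p = 0.00299; 0.193 after thinning). With 0 NELF sites, Cdk13 passed the filter through Integrator alone, the family where it was higher. A count of 0 allows up to 16 sites per 100000 in NELFE, above that Integrator mean. Over all body windows 1.78% were lower. Of the 4 with the most sites, Aff1, Polr2l and Mllt3 had means of 29.9, 16.3 and 14.2 per 100000 over the 11 libraries, not scaled by length. Across the 11 libraries, Ahnak (Pearson r = 0.891) and Dnajb4 (0.883) were among the 3 genes, of 1115 compared, whose levels followed the summed level of the 8 members most closely, as a description in which library and depth are shared.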

How the data were processed

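HIV integration was mapped in 11 libraries by linker-mediated nested PCR between the viral LTR and a linker, with paired reads on a GAIIx or HiSeq instrument, per the labels' protocols. The genome build was mm9, per the submitters' processing notes, and neither aligner nor read filters are stated in what was used here. The values the authors deposited are positions and have no other unit; the headers define an entry as the 0-based position of the first genomic base after the LTR, with its strand. PCR copies repeat a position, so the 873534 entries were collapsed by chromosome, position and strand, and depth is the number of distinct sites. Entries on the minus strand fit the palindromic target bases only after a move by 1 base, which was applied to printed target sequences alone.

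Gene models came from GENCODE on NCBIM37, the assembly of mm9, with the outermost start of a model as its start, and coordinates are 1-based. Sites per 100000 were compared between NELF and Integrator with limma 3.58.1 (trend and robust, R 4.3.3) on log2 values with a pseudocount of 5, adjusted by Benjamini-Hochberg over all genes tested. The body window and the share test were added after seeing the data. Each fit was also tested on simulated counts. At folds of 2 and 0.5 it recovered 2% and 2% of gene windows, 0% and 0% of start windows and 8% and 6% of body windows. At folds of 4 and 0.25 these were 68% and 8%, 22% and 0%, and 56% and 14%. In the simulated counts 50 genes were changed at each fold, the rest had no family difference, and a fixed spread was used for all. The real start windows had a median log2 difference of 0.51, so recovery in these data may differ from these rates. Shares over the 8 members together were given exact binomial intervals, shares of single genes were not, and a count of 0 allows up to 3 sites. Alternatives changed site definition, windows, filter, pseudocount, depth, model and libraries. Named genes were the 8 members, pathway genes past the threshold or with the 4 highest levels, and the 3 most similar genes; some genes that met this rule are not reported here. The members and lists were chosen with earlier results of these data known.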

Additional observations from a re-analysis of the deposited data

Results flagged for a closer look

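Among 34 sets of member levels or shares compared within a family, 4 had a library far from the others by Dixon's ratio. In each of the 4 sets the NELF library named had sites and the other NELF libraries had 0, which by itself makes the ratio 1. The usual rate of about 1 set in 20 assumes continuous values, so the 4 sets cannot be compared with it. The libraries were NELFCD at 2.42 sites per 100000 within 1 kb of the Cdk9 start, NELFE at 5.33 within 1 kb of the Ccnt1 start, NELFA at 3.32 in the Ell2 gene window and NELFCD at 4.85 within 1 kb of the Aff4 start. The first 3 values are 1 site each and the last is 2 sites.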

How the results depend on the processing

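No paired analysis was possible because the labels carry no replicate numbers and each library has its own fused protein. Site counts limit most members: 1 site of NELFE is 5.33 per 100000, and Cdk9 and Larp7 were under the filter. Of 196 gene windows higher in NELF, the count was 34 without flanks, 109 with a minimum of 10 sites, 119 without a filter, 103 with a pseudocount of 1, 105 after thinning and 0 by exact permutation test. Of 53 lower, it was 16, 14, 23 and 6 with the minimum of 10, no filter, pseudocount 1 and thinning, 33 without positions in 2 or more libraries, 22 with voom weights and 0 by exact permutation test, which had 730 higher and 375 lower before adjustment. Of 578 start windows higher in NELF, it was 164 with a minimum of 3 sites, 183 without a filter, 370 with pseudocount 1, 208 after thinning and 1389 with voom weights. Of 15 body windows higher, it was 4, 8 and 4 with the minimum of 10, pseudocount 1 and thinning, and of 73 lower 5, 44 and 5, and 6 with voom weights. With each library left out, the counts were 125 to 231 and 25 to 46 for gene windows, 375 (without INIP) to 992 (without NELFE) and 0 for start windows, and 5 to 15 and 10 to 167 for body windows. The summed level differed by -10.6 to 12.9 per 100000 and the start share by 32.3 to 38.2 points; that share moved to 25.6 without Polr2a and 43.9 without Ccnt1. Directions reversed, none called, for gene windows of Polr2a (-0.17 without flanks, -0.25 sites per 100000 by exact permutation test; -0.042 to 0.40 with libraries left out), Ccnt2 (1.83 sites per 100000 by that test, 0.24 thinned; -0.56 to 0.24) and Aff4 (0.021 thinned; -0.25 to 0.041), for the Ccnt1 start window with voom weights (0.32), the Ccnt2 body window thinned (0.050), the Ccnt1 start share over any annotated start (15.8 points) and the Aff4 start share (-2.07 to 20.2 points). The cause of these changes was not tested.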
